A study of Homo sapiens with 30 samples.

Results

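The MAP kinases ERK, JNK and p38 are restrained by phosphatases and adaptor proteins many of whose genes they switch on, and the data here follow 10 such feedback genes in airway epithelial cells that received birch pollen. The genes are the dual specificity phosphatases DUSP1, DUSP2, DUSP4, DUSP5, DUSP6, DUSP8 and DUSP10, and the Sprouty and Spred genes SPRY2, SPRY4 and SPRED2. They were chosen by name, as the probes whose gene name on the array is one of these symbols, which gave 13 probes of 58201. All 10 genes were among the 24539 gene names tested. DUSP8 has 3 probes and SPRY4 has 2, so the brightest probe by its mean stands for each of these genes and the others are given beside it.

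The cells were BEAS-2B, an immortalized human bronchial epithelial line, grown on Transwell inserts at the air-liquid interface. No allele or agent other than the exposure differed between groups. The pollen groups received 10 mg of whole birch pollen, blown into a sedimentation chamber with air at 0.5 bar. The mock groups, which the labels call air, went through the same procedure without pollen on the cells. For the array comparisons the methods say that a fine mesh kept pollen out of the mock wells. Handling, transfer and pressured air were thus shared by all groups, and the mesh was not. RNA was taken at times that the labels give as 10 min and 55 min, then at 2h25 min and 6h50 min, and last at 24 h, with 3 arrays in each of the 10 groups. The methods say that exposures were repeated on separate days and that each run held a mock control, but not which array belonged to which day or run.

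Growth factor receptors, Ras and RAF feed ERK, while cellular stress and inflammatory cytokines feed JNK and p38. DUSP5 removes the activating phosphates from ERK in the nucleus and DUSP6 does so in the cytoplasm. DUSP1, DUSP8 and DUSP10 act mainly on JNK and p38, DUSP2 and DUSP4 act on ERK and also on p38 or JNK, and the Sprouty and Spred proteins act further up, on the step from the receptor through Ras to RAF. In airway epithelium these routes carry signals of the epidermal growth factor receptor and of injury.

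The promoters of DUSP6, DUSP1 and DUSP8 are shown because below the ERK-directed genes passed the test with pollen at 2h25 min. The JNK- and p38-directed genes did not. They are the 250 bases before the start site in RefSeq on GRCh38.p14, read 5′ to 3′ on the strand of the gene. Capitals mark TGACG on either strand, the core of the cAMP response element, and the full element TGACGTCA holds TGACG on both strands at once.
DUSP6 (chr12:89352502-89352751, minus strand): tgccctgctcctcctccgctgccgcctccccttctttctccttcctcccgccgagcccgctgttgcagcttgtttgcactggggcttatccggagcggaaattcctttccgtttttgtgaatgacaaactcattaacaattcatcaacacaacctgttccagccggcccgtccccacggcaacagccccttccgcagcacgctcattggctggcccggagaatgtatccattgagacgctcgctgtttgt
DUSP1 (chr5:172771196-172771445, minus strand): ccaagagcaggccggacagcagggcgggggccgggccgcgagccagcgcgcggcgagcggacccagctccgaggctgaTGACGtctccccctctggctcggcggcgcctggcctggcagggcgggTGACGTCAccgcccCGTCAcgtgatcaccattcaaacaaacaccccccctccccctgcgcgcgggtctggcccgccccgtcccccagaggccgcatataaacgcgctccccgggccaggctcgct
DUSP8 (chr11:1572272-1572521, minus strand): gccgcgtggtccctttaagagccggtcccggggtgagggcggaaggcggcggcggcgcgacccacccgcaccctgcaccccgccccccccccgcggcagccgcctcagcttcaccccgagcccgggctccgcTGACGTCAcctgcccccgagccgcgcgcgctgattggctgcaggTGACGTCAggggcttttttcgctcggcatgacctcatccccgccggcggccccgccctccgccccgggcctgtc

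The letters of the 3 promoters differed. In windows of 300 bases, which add 50 bases after the start, DUSP6 held no TGACG, whereas DUSP1 and DUSP8 each held it 4 times, and 24.6% of the 35116 RefSeq promoter windows held it at least once. DUSP10, also directed at JNK and p38, held TGACG once in 1 of its 2 windows and no TGACGTCA. TGACG also occurred once in SPRY4 and once in a window each of SPRY2 and SPRED2. TGACGTCA occurred once in DUSP1, at -125 from the start site, and in DUSP8 at -118 and -74, and was found in 1.85% of all windows. In DUSP1 the E-box CACGTG at -108 overlapped the TGACG that starts at -111, and 7.26% of windows held that E-box. DUSP2 held CACGTG at -113, and a window of SPRED2 held the AP-1 motif TGANTCA at -6 and 34, a motif in 7.71% of windows. The CArG box, bound by serum response factor, was found in none of the 8 genes with a window and in 1.29% of all windows. No window was given for DUSP5. These matches describe letters and show no binding.

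DUSP5 and DUSP6, the ERK-directed phosphatases, were the only members that passed the test of pollen against mock in the main limma fit. They did so at 2h25 min, when 9 of the 10 members lay above mock. In pollen cells both genes had already risen from 10 min to 55 min. Levels are given as the log2 signal of a probe minus the 75th percentile of its array, here called the log2 value, and are compared between arrays for the same probe only. The probe of DUSP5 (A_23_P150018) lies at chr10:112270900-112270959 and that of DUSP6 (A_23_P139704) at chr12:89742144-89742203 on hg19, and gene models of that build were not used here.

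At 2h25 min the log2 values of DUSP5 were -1.57, -2.07 and -1.14 in mock and -0.18, -0.09 and -0.31 in pollen. Every pollen array stood above every mock array, and the mock arrays were the more spread. With limma, DUSP5 was 2.64-fold higher in pollen (log2 difference 1.40, SE 0.24, adjusted p = 0.0271, n = 3 and 3). DUSP6 had log2 values of 0.50, 0.26 and 0.71 in mock and of 1.66, 1.78 and 1.40 in pollen, again without overlap. It was 2.18-fold higher (log2 difference 1.13, SE 0.16, adjusted p = 0.00494, n = 3 and 3). Since the groups did not overlap, pollen was necessarily higher in 3 of 3 replicate numbers for each gene. A gene was called where its adjusted p lay under 0.05 and its fold change reached 1.1, and at this time 0.0448% of all gene names were called, 11 in all, each of them higher, of which DUSP5 and DUSP6 were 2.

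The direction was the same under every setting run at 2h25 min and with each array left out, with log2 differences between 1.16 and 1.68 for DUSP5 and between 0.95 and 1.34 for DUSP6, but the calls did not. Within the slide that held 2 arrays of each group, DUSP5 differed by 1.68 and DUSP6 by 1.34, with an adjusted p of 1.00 for each in a limma fit of these arrays with those of 55 min on that slide. Without mock replicate 2, pollen replicate 1 or pollen replicate 2, neither gene was called (limma, adjusted p from 0.0560 to 0.295), and without mock replicate 1 DUSP5 was not (limma, adjusted p = 0.143). Neither gene was called after normexp correction with quantile normalization, in the deposited log2 table or with the percentile taken over each array's own probes (limma, adjusted p from 0.115 to 1.00), and DUSP5 was not called without the filter on dim probes (limma, adjusted p = 0.0647).

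**Figure D1:**
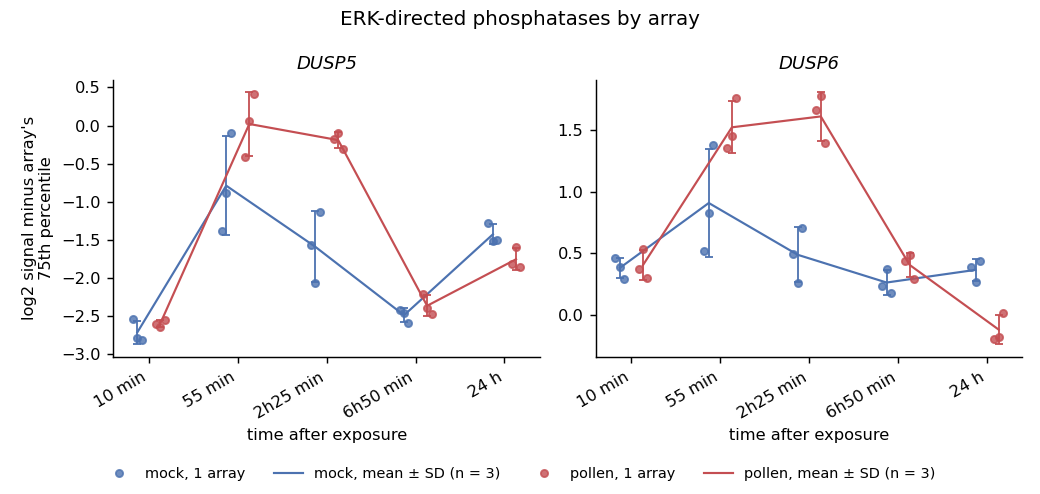
Log2 value (log2 signal minus the 75th percentile of the array) of DUSP5 and DUSP6 at each time after exposure. Points are arrays, lines join the means of mock and pollen, and bars are the SD over 3 arrays. Mock and pollen lay together at 10 min, were furthest apart at 2h25 min, and differed in the mean by 0.12 and 0.14 at 6h50 min.

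The pollen difference of these genes was already above 0 at 55 min, where the arrays overlapped. DUSP5 had log2 values of -1.39, -0.88 and -0.10 in mock and of -0.42, 0.06 and 0.41 in pollen. The difference was 0.81 (SE 0.24, unadjusted p = 0.00265, limma adjusted p = 0.920). DUSP6 read 0.52, 0.83 and 1.38 in mock and 1.36, 1.45 and 1.76 in pollen, a difference of 0.62 (SE 0.16, unadjusted p = 0.000898, limma adjusted p = 0.920). For both genes the overlap came from mock replicate 3, the highest mock array. Taken within a replicate number, pollen was above mock by 0.97, 0.95 and 0.51 for DUSP5 and by 0.84, 0.62 and 0.38 for DUSP6. The numbers were not taken to pair arrays at 55 min, however, and replicate 1 of mock and of pollen lay on different slides. Without mock replicate 3 the difference was 1.16 for DUSP5 (limma adjusted p = 0.0574) and 0.85 for DUSP6 (limma adjusted p = 0.0225). Pollen replicate 1 at this time was hybridised to another array design, and without it the differences were 1.03 for DUSP5 and 0.70 for DUSP6, with limma adjusted p-values of 0.753 and 0.979. Limma's array weights gave that array 0.118, mock replicate 2 of 55 min 6.32 and pollen replicate 2 of 55 min 3.34. The other arrays of 55 min had 0.752 to 0.975, so the weighted means rested mostly on replicate 2 of each group. With these weights DUSP5 and DUSP6 were called at 55 min (limma adjusted p = 0.00672 and 0.0103), as was DUSP1 (adjusted p = 0.0445), where 0.721% of gene names were called.

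At 10 min, 6h50 min and 24 h the ERK-directed genes were not called. At 10 min DUSP5 ranged from -2.82 to -2.54 in mock and from -2.64 to -2.55 in pollen, and DUSP6 from 0.29 to 0.46 and from 0.30 to 0.54. At 6h50 min the differences were 0.12 for DUSP5 and 0.14 for DUSP6. At 24 h both were below mock on every array. DUSP6 read 0.39, 0.27 and 0.44 in mock and -0.20, -0.18 and 0.02 in pollen, a difference of -0.49 (SE 0.16, unadjusted p = 0.00624, limma adjusted p = 0.967). DUSP5 read -1.28, -1.51 and -1.50 in mock and -1.82, -1.59 and -1.86 in pollen, a difference of -0.33.

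The change of the pollen effect between 2h25 min and 24 h was tested as a difference of differences. This contrast was added after the slides had been seen, because replicate 3 of 2h25 min lies on the slide of the 24 h arrays. It tests no change of sign, and neither gene was called at 24 h itself. For DUSP6 the pollen effect was lower at 24 h by -1.61 on the log2 scale (SE 0.23, limma adjusted p = 0.00613), and 0.00815% of gene names were called in that contrast, 2 in all. For DUSP5 the contrast was -1.73 (SE 0.34, limma adjusted p = 0.299). The replicate numbers were taken to pair the arrays at these times. At 2h25 min, however, replicates 1 and 2 of both groups shared a slide and replicate 3 of both lay on another, so pairing and slide cannot be told apart there. With the replicate as a block DUSP5 was called as well (limma adjusted p = 0.0430) and DUSP6 remained called (limma adjusted p = 0.0214). Neither was called after normexp correction with quantile normalization, with the percentile over each array's own probes or in the deposited log2 table, where DUSP6 had limma adjusted p-values of 1.00, 1.00 and 0.451.

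DUSP1, DUSP8 and DUSP10, directed at JNK and p38, were not called between pollen and mock at any time, other than DUSP1 at 55 min with array weights. DUSP1, an immediate early gene whose product is nuclear, read 1.65, 1.55 and 3.22 in mock at 55 min and 2.79, 2.66 and 3.72 in pollen. Mock replicate 3 lay above 2 of the 3 pollen arrays. The difference was 0.92 (SE 0.34, unadjusted p = 0.0121, limma adjusted p = 0.920), and 1.46 without that array (limma adjusted p = 0.0752). Within a replicate number pollen was above mock by 1.14, 1.11 and 0.50, though the numbers were not taken to pair arrays at 55 min. At 2h25 min DUSP1 was 1.91, 1.70 and 1.57 in mock and 2.41, 2.26 and 2.08 in pollen, without overlap and with a difference of 0.53 (SE 0.34, limma adjusted p = 1.00). At 6h50 min it was 1.67, 1.63 and 1.42 in mock and 1.19, 1.25 and 1.07 in pollen, a difference of -0.41 (SE 0.34, limma adjusted p = 0.931) that also had no overlap.

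DUSP8 was the only member below mock at 2h25 min, with log2 values of 1.21, 0.66 and 0.87 in mock and 0.69, 0.24 and 1.04 in pollen (difference -0.25, SE 0.29, limma adjusted p = 1.00). Its other probes differed by -0.48 and -0.44 at that time, and none of the 3 passed the test. At 55 min the pollen arrays read -0.39, 1.22 and 1.19, where the low value belongs to the array of the other design. All 3 probes were lowest on that array among the pollen arrays of 55 min. Without it the difference of DUSP8 turned from -0.17 to 0.36 (limma adjusted p = 1.00). At 6h50 min DUSP8 read 1.40, 1.36 and 1.09 in mock and 1.08, 0.81 and 0.79 in pollen, apart by a narrow gap (difference -0.39, SE 0.29, limma adjusted p = 0.911).

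DUSP10 had small differences at every time, from -0.19 at 10 min to 0.33 at 2h25 min (SE 0.20). The pollen arrays of 2h25 min read -3.75, -3.66 and -4.13 against -4.30, -3.99 and -4.24 in mock, and overlapped them.

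**Figure D2:**
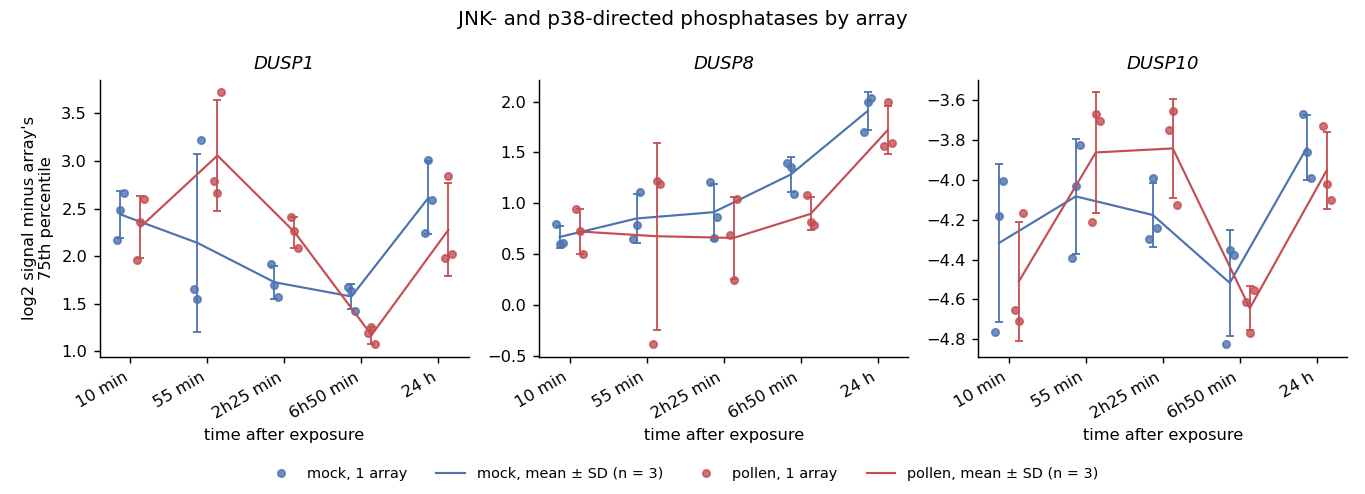
Log2 value of DUSP1, DUSP8 and DUSP10 at each time after exposure, by array, with the mean and SD of 3 arrays for mock and pollen. DUSP1 was high on 1 mock array at 55 min (3.22), DUSP8 was low on 1 pollen array at 55 min (-0.39), and pollen and mock of each gene overlapped at most times.

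The phosphatases with a mixed range, DUSP2 and DUSP4, were not called with pollen either. DUSP4, a nuclear enzyme, read 1.47, 1.53 and 1.42 in mock at 2h25 min and 1.91, 1.95 and 1.61 in pollen, without overlap (difference 0.35, SE 0.14, unadjusted p = 0.0173, limma adjusted p = 1.00). DUSP2, known best from lymphocytes, was well above background on 27 of 30 arrays, the fewest of the probes that stand for a gene. It read -6.37, -6.65 and -6.05 in mock at 10 min and -5.63, -5.86 and -5.54 in pollen, a difference of 0.68 (SE 0.36, limma adjusted p = 1.00). That was the widest at that time among the probes that stand for a gene, and the second probe of SPRY4, given below, differed by more.

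The Sprouty and Spred genes were above mock at 2h25 min on every array, and none was called. SPRY4 read -2.63, -3.51 and -2.54 in mock and -2.24, -2.14 and -2.29 in pollen (difference 0.67, SE 0.23, unadjusted p = 0.00693, limma adjusted p = 1.00). The mock spread came from replicate 2, without which the difference was 0.36 (limma adjusted p = 1.00). SPRY2 read 0.49, 0.62 and 0.44 in mock and 0.84, 1.14 and 0.67 in pollen (difference 0.37, SE 0.11, unadjusted p = 0.00287, limma adjusted p = 0.913). SPRED2, which restrains Ras together with neurofibromin, read -1.80, -1.81 and -1.81 in mock and -1.51, -1.38 and -1.58 in pollen, a difference of 0.32 (SE 0.14, unadjusted p = 0.0352, limma adjusted p = 1.00).

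At 24 h SPRY4 stood below mock on every array, with -2.13, -2.39 and -2.22 in mock and -2.59, -3.06 and -2.75 in pollen (difference -0.55, SE 0.23, unadjusted p = 0.0223, limma adjusted p = 1.00). The other probe of SPRY4, well above background on 25 of 30 arrays, did not share this course. It differed by -0.39 at 2h25 min and by 0.00 at 24 h (SE 0.39), and the probes were annotated to different transcripts of the gene. At 10 min it ranged from -6.25 to -6.04 in mock (mean -6.14) and from -5.49 to -4.29 in pollen (mean -4.98), without overlap. It was well above background on 2 of the 3 mock arrays of that time, when 0 of all probes were called.

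**Figure D3:**
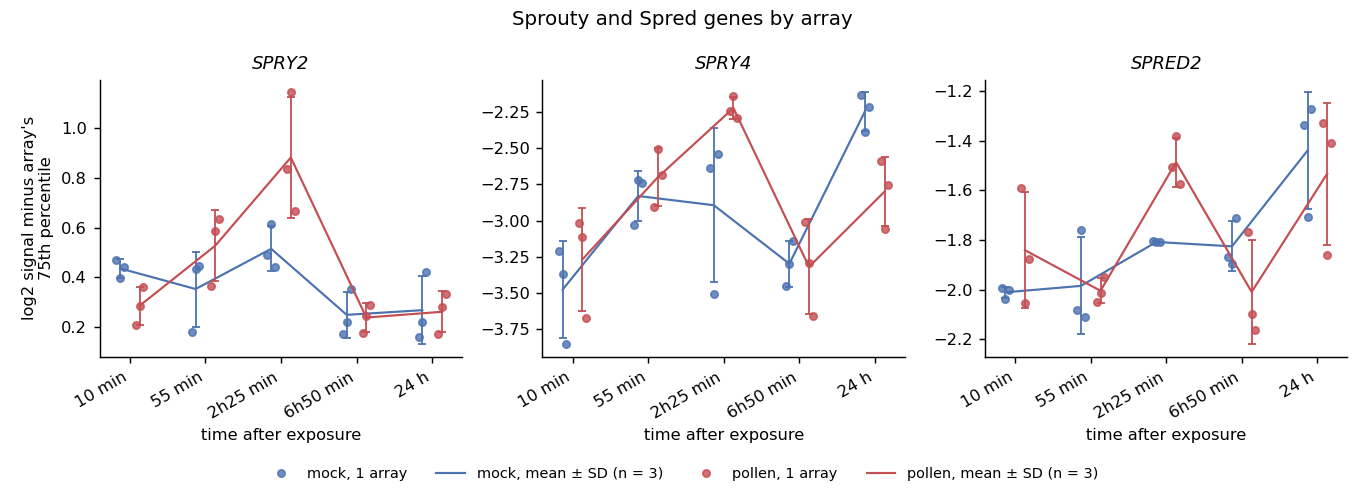
Log2 value of SPRY2, SPRY4 and SPRED2 at each time after exposure, by array, with the mean and SD of 3 arrays for mock and pollen. At 2h25 min the pollen arrays of each gene lay above its mock arrays, and at 24 h SPRY4 had the opposite order.

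Across the 10 genes, 9 were above mock at 2h25 min, against 41.5% of all gene names, with a median log2 difference of 0.36 beside -0.03 over all gene names. Groups were apart with pollen higher for 7 of the 10, namely DUSP1, DUSP4, DUSP5, DUSP6, SPRY2, SPRY4 and SPRED2, against 2.86% of all gene names. At an unadjusted p under 0.05 there were 6, against 2.99%. At 55 min no member was called, as against 0.00408% of gene names (1 in all), 3 had an unadjusted p under 0.05 beside 5.19%, and the median was 0.15 beside 0.00. The other scalings moved the median over all probes at 55 min from -0.01 to between -0.37 and -0.24 and that of the members to between -0.26 and -0.16, with DUSP1, DUSP5 and DUSP6 still above mock and DUSP10, SPRY2 and SPRY4 below it. No member was called at 10 min (0% of gene names called), at 6h50 min (0.0408%) or at 24 h (0.00408%). At an unadjusted p under 0.05 from limma there were 0, 0 and 2 members at these times, beside 1.85%, 7.16% and 3.64% of gene names. At 24 h 9 of the 10 lay below mock, where 49.4% of gene names lay above it, with a median of -0.18 beside 0.00. Of these, DUSP5, DUSP6 and SPRY4 were apart from mock and lower, beside 3.44% of gene names. Over the 5 times 5 members were apart and higher at 1 time and apart and lower at another, beside 3.39% of gene names.

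**Figure D4:**
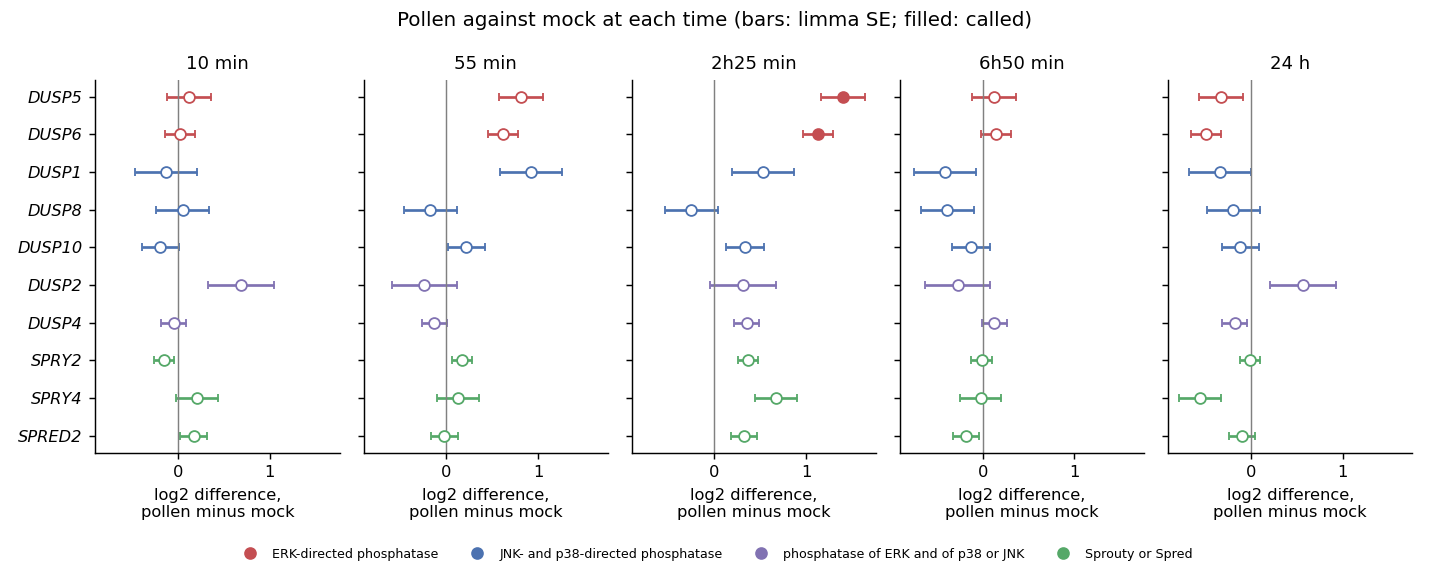
Log2 difference between pollen and mock for the 10 genes at each of 5 times, with the limma SE as bars and colour by the kinase the gene acts on. Filled points are called (adjusted p under 0.05), which are DUSP5 and DUSP6 at 2h25 min. At that time 9 of 10 points lay right of 0, and at 24 h 9 of 10 lay left of it.

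The ERK-directed phosphatases moved further with pollen than the JNK- and p38-directed ones at 2h25 min. The second class had no common course over the 10 group means. Pearson's r was 0.01 for DUSP1 with DUSP8, 0.26 for DUSP8 with DUSP10 and 0.71 for DUSP1 with DUSP10. DUSP10 with the ERK-directed DUSP5 had 0.81. The mean log2 value of DUSP5 and DUSP6 minus that of DUSP1, DUSP8 and DUSP10 was taken on each array as a score. Only the change of this score between groups has a meaning, since its level sets probes against each other. At 2h25 min it was -0.14, -0.36 and 0.39 in mock and 0.96, 1.23 and 0.88 in pollen. The groups did not overlap, and the means differed by 1.06. At 55 min it was 0.26, 0.54 and 0.47 in mock and 1.07, 0.69 and 0.69 in pollen, a difference of 0.39, also without overlap. At 6h50 min it was -0.51, -0.60 and -0.58 in mock and -0.11, -0.06 and -0.20 in pollen, a difference of 0.44, when the differences with pollen were 0.12 and 0.14 for the ERK-directed genes and from -0.41 to -0.13 for the others. At 10 min and 24 h the groups overlapped, with differences of 0.16 and -0.19.

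The comparison at 2h25 min did not rest on 1 gene of the second class, since the difference was 1.22 without DUSP1, 0.83 without DUSP8 and 1.13 without DUSP10. At 55 min it was 0.69 without DUSP1 and 0.14 without DUSP8, and 0.26 without the array of the other design. No test was made of this score, because the genes were chosen with results of these data known.

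**Figure D5:**
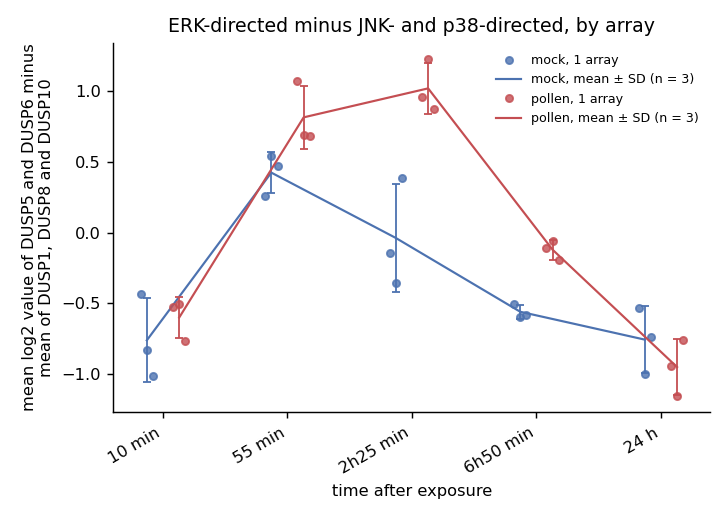
Mean log2 value of DUSP5 and DUSP6 minus the mean of DUSP1, DUSP8 and DUSP10 on each array, by time after exposure, with mean and SD of 3 arrays for mock and pollen. Pollen lay above mock without overlap at 55 min, 2h25 min and 6h50 min, with a difference of the means of 1.06 at 2h25 min.

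The levels also changed with time in mock cells. From 10 min to 55 min DUSP5 rose in mock from between -2.82 and -2.54 to between -1.39 and -0.10, by 1.93 (SE 0.24, limma adjusted p = 0.000387), the only member called in mock (0.204% of gene names). Mock replicate 1 of 55 min, which shared the slide of the arrays of 10 min, read -1.39 and so lay above all 6 arrays of 10 min. In pollen DUSP5 rose by 2.62 (SE 0.24, limma adjusted p = 2.11e-06) and DUSP6 by 1.12 (SE 0.16, limma adjusted p = 0.00122), where 0.933% of gene names were called. The pollen arrays of these times shared no slide, so that time and slide cannot be told apart there. From 55 min to 2h25 min no member was called in mock (0.0163% of gene names) or in pollen (0.232%). At an unadjusted p under 0.05 with limma there were 3 members in mock, beside 4.45% of gene names, and 5 in pollen, beside 8.53%.

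From 2h25 min to 6h50 min 8 members fell in pollen, which were all but DUSP2 and DUSP8, against 20.6% of gene names called lower. DUSP5 fell by 2.18 (SE 0.24, limma adjusted p = 3.25e-06) and DUSP6 by 1.21 (SE 0.16, limma adjusted p = 1.91e-05). In mock DUSP4 and DUSP5 fell, by 0.47 and 0.90, and DUSP2 rose by 1.15, where 33.5% of gene names were called. The pollen effect itself was lower at 6h50 min than at 2h25 min for all 10 members, by up to 1.27 for DUSP5, and none of these contrasts was called (limma, 0.00408% of gene names). Over all gene names 55.4% had a higher effect at 6h50 min, and at an unadjusted p under 0.05 there were 5 members beside 5.35% of gene names. The other contrasts of the effect between neighbouring times called no member and 0% of gene names, with 3, 2 and 1 members at an unadjusted p under 0.05 in the order of time (limma), beside 3.81%, 1.39% and 4.91% of gene names. From 6h50 min to 24 h 7 members were called in mock (40.9% of gene names) and 6 in pollen (36.7%). In mock DUSP1, DUSP4, DUSP5, DUSP10, SPRY4 and SPRED2 rose, by 0.39 for SPRED2 up to 1.06 for DUSP5, and DUSP2 fell by 1.21. In pollen DUSP1, DUSP4, DUSP8, DUSP10 and SPRED2 rose, by 0.38 for DUSP4 up to 1.11 for DUSP1, and DUSP6 fell by 0.53. All arrays of 6h50 min lay on a slide of their own, so that this time and its slide cannot be told apart. With the slide as a random block 3 members were called in mock and 0 in pollen between 6h50 min and 24 h (limma). Of 32099 probes 3992 were then called higher and 2931 lower in mock, and 3346 higher and 2399 lower in pollen. Without the block 8 members had an unadjusted p under 0.05 in each, beside 15746 probes in mock and 14751 in pollen.

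Between 2h25 min and 24 h, which share a slide for replicate 3 of 2h25 min, DUSP8 rose in mock by 1.00 (SE 0.29, limma adjusted p = 0.0120) and in pollen by 1.06 (SE 0.29, limma adjusted p = 0.00964), beside 12.3% and 11.2% of gene names called higher. On that slide DUSP8 read 0.87 in mock and 1.04 in pollen at 2h25 min, below every array of its group at 24 h. A further probe of DUSP8 rose as well, by 1.00 and 1.23 (limma adjusted p = 0.0231 and 0.00728), and the last, at chr11:1579141-1579394 on hg19, was not called, with -0.26 and 0.18. SPRY4 also rose in mock, by 0.65 (SE 0.23, limma adjusted p = 0.0352). In pollen DUSP5, DUSP6 and SPRY2 fell by 1.56, 1.74 and 0.62 (limma adjusted p = 6.38e-05, 1.94e-07 and 0.000269), beside 11.8% of gene names called lower. Within the slide the pollen array of 2h25 min was above the highest array of 24 h for each of them, with -0.31 for DUSP5, 1.40 for DUSP6 and 0.67 for SPRY2.

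The genes around these feedback members were followed in 5 further lists, and none of their genes was called between pollen and mock at any of the 5 times. Of 22 genes that ERK output is read from 20 were tested, and 7 had an unadjusted p under 0.05 at 2h25 min (limma), beside 2.99% of gene names. Their median log2 difference was 0.36 beside -0.03 over all gene names. The widest differences were those of FOSL1, an AP-1 subunit (1.15, SE 0.27, limma adjusted p = 0.265), EREG, the ligand epiregulin (1.08, SE 0.20, adjusted p = 0.0579), and IER3 (1.08, SE 0.21, adjusted p = 0.0586). At 55 min they were FOS (1.77, SE 0.64), EGR1 (1.03, SE 0.31) and IER3 (0.88, SE 0.21), each with an adjusted p of 0.920. At 24 h all 20 lay below mock, where 49.4% of gene names lay above it, with a median of -0.22 beside -0.002 over all gene names.

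Other inhibitors of receptor and Ras signalling had 5 of 19 tested genes (20 listed) at an unadjusted p under 0.05 at 2h25 min, beside 2.99% of gene names, with a median of 0.13. Among them ERRFI1, an inhibitor of the epidermal growth factor receptor, differed by 0.62 (SE 0.13, limma adjusted p = 0.117) and the pseudokinase gene TRIB1 by 0.82 (SE 0.29, limma adjusted p = 1.00). The 8 tested of 12 MAP kinase phosphatases outside the members, the 30 genes of the ERK cascade and the 24 of the JNK and p38 cascades had medians of -0.04, 0.03 and -0.04 at that time. They had 1, 2 and 4 genes at an unadjusted p under 0.05, beside the same 2.99% of gene names. In the JNK and p38 cascades MAP2K3, a kinase that activates p38, differed by 0.87 (SE 0.16, limma adjusted p = 0.0579).

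The genes most like each member over the 10 group means were taken by Pearson's r, as a description over means that share arrays and slides. For DUSP5 they were ETS2 (r = 0.95), CITED2 (0.93) and TRIB1 (0.93), and for DUSP6 ERRFI1 (0.94), KLF10 (0.94) and ZC3H12C (0.93). For SPRY2 they were EFNA1 (0.95), SOCS3 (0.94) and MIDEAS (0.93), for SPRY4 MAFF (0.94), PNRC1 (0.94) and SLC25A25 (0.93), and for DUSP1 MSRB3 (0.95), ACLY (0.95) and SMAP2 (0.95).

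On an array 44.7% to 59.3% of probes stood well above background, and 0 spots were marked as saturated. The precision is limited by the number of arrays. All 7 epithelial markers, among them KRT8, KRT18, CDH1 and EPCAM, were well above background on 30 arrays, as were VIM, CDH2 and FN1. PDGFRA of fibroblasts, PECAM1 of endothelium and MUC5B of secretory cells were so on 0 arrays, whereas PTPRC of leukocytes, COL1A1 and CDH5 were so on 30, so that this mark alone names no cell type.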

How the data were processed

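RNA of BEAS-2B cells was measured on 30 one-colour Agilent arrays. Per the file headers and the submitters' processing notes, the authors extracted spot intensities with Agilent Feature Extraction 11.0.1.1, which removed background and spatial trends, with no scaling between arrays. They also deposited a table of log2 values, quantile normalized from its values, used as an alternative. Of its 30 columns, 24 matched the array of their name best, and 6, all at 24 h, matched another array of their group. A count of 0 measurement columns stayed without a condition.

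Spots marked as outliers or uneven were left out, spots of a probe averaged, and log2 intensity centred on the 75th percentile of each array over the 33873 probes on both designs (58201 and 42405 probes), because 55 min pollen replicate 1 is on the second. That percentile was 578 to 2111. A probe was tested if some group had it well above background on each of its 3 arrays, which left 32099 probes of 24539 gene names, with lmFit and eBayes of limma 3.58.1 in R 4.3.3 (10 group means, 20 residual and 2.35 prior degrees of freedom) and Benjamini-Hochberg adjustment over all probes. Differences are on the log2 scale, and values written as fold are linear. Named by accession were 33536 probes, by the name in the file 4384, and 20281 kept the file's name. Figures and summaries used Python 3.11.15 with pandas 2.3.3 and matplotlib 3.10.9.

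Replicate numbers in the labels were checked by the correlation of deviations from group means over all probes. They were 0.30 to 0.35 at 10 min, 0.40 to 0.52 at 2h25 min and 0.22 to 0.49 at 24 h, where the numbers were taken to pair arrays, and -0.12 to 0.35 at 55 min and 0.05 to 0.12 at 6h50 min, where they were not. At 2h25 min the slide also went with the replicate number in both groups, so the correlation there cannot tell pairing from slide. The fit was tested on simulated data.

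The members, classes and gene lists were chosen with earlier results of these data known. Every probe of a member is reported, and 1 probe, that with the highest mean, stands for the gene. From the other lists the up to 3 genes with the largest absolute difference among those called, or among those tested where none was called, could be named, and 3 genes most alike by r. The genes PTPRC, COL1A1 and CDH5 and the marker genes were read for detection only. A probe named DUSP6 in the annotation of the 6h50 min arrays only lies on the opposite strand and was not used. On the arrays of the first design no member spot lay in an area that was dim against the other arrays, and 55 min pollen replicate 1 was not checked for this. Promoter windows of 8 members were in the RefSeq table used.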

Additional observations from a re-analysis of the deposited data

Results flagged for a closer look

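The pollen effect on DUSP6 differed between times by the test of the difference itself, being lower at 24 h than at 2h25 min by -1.61 on the log2 scale (limma adjusted p = 0.00613). For 5 of the 10 genes every pollen array lay above every mock array at 1 time and below it at another, as it did for 3.39% of all gene names. DUSP5 had 1.40 at 2h25 min and -0.33 at 24 h, and the test of the difference gave an adjusted p of 0.299 with limma. DUSP6 had 1.13 and -0.49 at the same times. SPRY4 had 0.67 at 2h25 min and -0.55 at 24 h (test of the difference -1.22, limma adjusted p = 0.850). DUSP1 had 0.53 at 2h25 min and -0.41 at 6h50 min (test of the difference -0.93, limma adjusted p = 0.907), where 6h50 min cannot be told apart from its slide. SPRY2 had 0.37 at 2h25 min and -0.15 at 10 min, and that difference was not tested.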

How the results depend on the processing

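The 36 called values of single members kept their direction in every setting and with each array left out. They lost the call in 107 of 290 values under other settings and in 39 of 222 with an array left out. Counts of members called moved as follows, and the cause was not tested. After normexp and quantile normalization, they were 0 for pollen against mock at 2h25 min, 0 for the effect at 24 h against 2h25 min, 0, 0, 1 and 0 in mock (55 min against 10 min, 6h50 min against 2h25 min, 24 h against 6h50 min, 24 h against 2h25 min) and 1, 2, 0 and 1 in pollen. Of 32099 probes, those called higher and lower in the same order were 2 and 0, then 0 and 1. They were 1 and 0, 1361 and 1342, 2418 and 3119, and 1296 and 1499 in mock. In pollen they were 24 and 87, 967 and 1140, 1790 and 2030, and 952 and 997. In the deposited log2 table the members called were 0 and 0, then 0, 1, 2 and 0 in mock and 1, 5, 1 and 3 in pollen. Probes called higher and lower were 2 and 0, then 0 and 1. They were 2 and 0, 2353 and 2054, 3202 and 4263, and 1982 and 2184 in mock. In pollen they were 59 and 225, 1658 and 1877, 2566 and 2821, and 1481 and 1595. With the percentile over own probes the members called were 0 and 0, then 1, 0, 3 and 0 in mock and 1, 3, 0 and 2 in pollen. Probes called higher and lower were 2 and 0, then 0 and 1. They were 24 and 1, 1262 and 2813, 3788 and 2925, and 1700 and 2011 in mock. In pollen they were 44 and 166, 1286 and 2673, 2982 and 2326, and 1028 and 1488. With the slide as a random block the members called were 2 and 1, then 1, 0, 3 and 2 in mock and 1, 5, 0 and 4 in pollen. Probes called higher and lower were 19 and 0, then 0 and 2. They were 5 and 3, 1269 and 3094, 3992 and 2931, and 3522 and 4381 in mock. In pollen they were 11 and 5, 1536 and 2778, 3346 and 2399, and 2974 and 3291. With array weights the members called were 3 for pollen against mock at 55 min, 3 in mock and 4 in pollen for 55 min against 10 min, and 4 in mock for 24 h against 2h25 min. Probes called higher and lower were 173 and 58, 1585 and 1329, 825 and 502, and 5828 and 6690 in that order, of 32099. Without the filter on dim probes the members called were 1 for pollen against mock at 2h25 min and 1 in mock for 24 h against 2h25 min. Of the 58201 probes then tested, those called higher and lower were 3 and 0, and 3154 and 3873. Within the slide of 2 and 2 arrays 0 members and 0 probes were called at 2h25 min.

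Leaving out an array gave 0 to 1 members called with pollen at 55 min and 0 to 2 at 2h25 min. With all arrays 0.00408% and 0.0448% of gene names were called at these times. Without mock replicate 3 of 55 min 12 of 32099 probes were called higher and 2 lower at 55 min. In mock it gave 1 to 2 for 55 min against 10 min and 2 to 3 for 6h50 min against 2h25 min, where all arrays called 0.204% and 33.5% of gene names. For 24 h against 6h50 min it gave 4 to 6 in mock and 3 to 6 in pollen, where all arrays called 40.9% and 36.7%. For 24 h against 2h25 min in mock it gave 0 to 3, where all arrays called 3999 of 32099 probes higher and 4788 lower.

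The median difference of the ERK-directed genes moved from 0.71 to 0.20 at 55 min and from 0.13 to -0.0234 at 6h50 min after normexp and quantile normalization, and to -0.0333 at 6h50 min in the deposited table. That of the JNK- and p38-directed genes at 55 min turned from 0.22 to -0.11 after normexp and quantile normalization and in the deposited table, and to -0.19 with the percentile over own probes. At 2h25 min it moved from 0.33 to 0.20 with array weights and to 0.44 within the slide. With an array left out it ranged from 0.24 to 0.47 at 2h25 min and from -0.48 to -0.33 at 6h50 min.

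With the replicate block, where arrays were taken to pair at 10 min, 2h25 min and 24 h, 2 members were called in the effect at 24 h against 2h25 min. Of 32099 probes 2 were called higher and 8 lower there. DUSP5 and DUSP6 remained called at 2h25 min, where 42 probes were called higher and 2 lower. At 55 min and 6h50 min the correlations did not show the numbers to pair arrays, and the block called 0 members there. It called 0 probes at 55 min, and 119 higher and 16 lower at 6h50 min.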
